A study of Homo sapiens with 33 samples.

Results

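The genes described here are 10 members of the fibroblast growth factor (FGF) signalling system, chosen by name: the receptors FGFR1, FGFR2, FGFR3 and FGFR4, the receptor-like gene FGFRL1, the ligand family genes FGF2, FGF5 and FGF11, the binding protein FGFBP1 and the adaptor FRS2. These 10 were chosen with earlier results of these data known, so counts of members set beside all genes are a description only. All 10 have a row among the 56470 gene symbols of the count table, and all 10 passed the filter on low counts in each cell line. They were measured by bulk RNA sequencing of poly(A) RNA in SCC1 (UM-SCC-1), SCC6 (UM-SCC-6) and SCC25, established lines of head and neck squamous cell carcinoma (HNSCC). Each line received 100 nM cetuximab, an antibody that blocks the epidermal growth factor receptor EGFR, or PBS (untreated controls), and the medium was changed daily. There were 33 libraries, with PBS from day 0 to day 5 and cetuximab from day 1 to day 5. The labels describe a different medium for SCC6 (high-glucose DMEM with non-essential amino acids) than for SCC1 and SCC25 (DMEM with hydrocortisone). The methods of the paper describe the same medium for all of these lines. If the media differed, the effects of line and medium on a level cannot be told apart. In cetuximab-treated SCC6, the labels give day 2 for 2 libraries, called 2a and 2b here, and day 1 for none. Each other line, treatment and day had 1 library, and the 5 days stood in for replicates, so p-values measure the spread between these libraries.

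FGF ligands bind receptor tyrosine kinases at the cell surface together with heparan sulfate, and the active receptor signals through the adaptor FRS2 to the RAS and ERK cascade that EGFR also feeds. In stratified epithelia, FGFR2 and FGFR3 are the characteristic receptors of the keratinocyte, and FGFR1 is typical of mesenchymal cells. FGF receptors are studied in HNSCC as receptors that can signal in parallel with EGFR, which is the question this comparison of cetuximab with PBS bears on.

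The promoters of FGFR2, FGFR3 and FGFBP1 are shown because these 3 genes had the largest rises of the set in SCC1. The 250 bases before the start of transcription were taken from RefSeq on GRCh38.p14, a newer build than the one named for the counts, at chr10:121598445-121598694 (minus strand) for the most upstream of 5 FGFR2 starts, chr4:1793043-1793292 (plus strand) for FGFR3 and chr4:15938741-15938990 (minus strand) for FGFBP1. Capitals mark CpG dinucleotides.
FGFR2: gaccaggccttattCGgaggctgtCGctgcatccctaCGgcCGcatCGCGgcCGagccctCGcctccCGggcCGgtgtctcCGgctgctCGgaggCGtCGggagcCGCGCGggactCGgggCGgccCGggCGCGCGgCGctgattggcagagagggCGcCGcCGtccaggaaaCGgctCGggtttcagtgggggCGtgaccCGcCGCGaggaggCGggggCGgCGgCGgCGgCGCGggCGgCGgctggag
FGFR3: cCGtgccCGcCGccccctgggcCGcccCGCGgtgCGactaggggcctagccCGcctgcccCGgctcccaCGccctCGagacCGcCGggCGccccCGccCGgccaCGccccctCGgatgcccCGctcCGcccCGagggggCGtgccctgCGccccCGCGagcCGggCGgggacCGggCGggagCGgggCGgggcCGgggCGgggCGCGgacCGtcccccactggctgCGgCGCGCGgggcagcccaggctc
FGFBP1: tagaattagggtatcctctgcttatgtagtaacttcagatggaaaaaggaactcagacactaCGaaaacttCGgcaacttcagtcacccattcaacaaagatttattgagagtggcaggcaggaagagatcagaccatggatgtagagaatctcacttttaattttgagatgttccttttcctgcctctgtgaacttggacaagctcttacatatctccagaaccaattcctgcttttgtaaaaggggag
The FGFR2 window held 42 CpG dinucleotides and the FGFR3 window 40, more than 98.6% and 97.8% of the 35116 promoter windows of the same length, whose median was 11. The FGFBP1 window held 2, more than 14.7% of windows. No match on either strand to TGANTCA (AP-1), GCCNNNGGC (TFAP2) or CCGGAA (ETS) was found in these 3 windows. Of all windows, 6.57% held the AP-1 letters, 19.8% the TFAP2 letters and 14.5% the ETS letters. Among the windows of the other members with an entry (FGFR4, FGFRL1, FGF2, FGF5, FGF11 and FRS2), the TFAP2 letters occurred at 1 of 2 FGFR4 starts and 1 of 3 FGF11 starts, and the ETS letters occurred at 2 places before the FRS2 start.

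Total counts ranged from 28508539 to 80727185 per library, and each of the 33 libraries correlated best with a library of its own line. The libraries were run on 5 flow cells, named A to E here. In SCC1, PBS of days 0 to 4 was on B, whereas PBS of day 5 and all cetuximab libraries were on C. In SCC6, PBS of days 0 and 1 was on C, PBS of days 2 to 5 and cetuximab 2a, 2b and 3 were on D, and cetuximab of days 4 and 5 was alone on E with the largest totals, 80727185 and 75169729. All SCC25 libraries were on A apart from cetuximab of days 3 to 5, which were on B. Of 8 markers of squamous epithelium, 7 rose and 1 fell under cetuximab in SCC1, where their summed level was 1458 to 2744 CPM with PBS and 6536 to 11427 CPM with cetuximab. In SCC6 3 rose and 3 fell, and in SCC25 2 rose and 0 fell, with all 8 tested in each line. The share of all tested genes that rose was 22.7%, 15.6% and 8.8% in the 3 lines, and 22.1%, 14.6% and 9.5% fell. All 8 were present in every line, but the basal keratins KRT5 and KRT14 were at 1.76 to 3.21 and 1.84 to 6.54 CPM (normalised read counts, scaled to each library's total) in SCC6 with PBS, against 4671 to 6484 and 2838 to 4295 CPM in SCC25. Of 9 fibroblast markers, 5 passed the filter in SCC1, 3 in SCC6 and 9 in SCC25, and of these 5, 2 and 5 rose under cetuximab and 0, 0 and 1 fell. Their summed level in SCC1 was 51.9 to 72.8 CPM with PBS and 96.2 to 221 CPM with cetuximab. In SCC6 it was 3.39 to 5.28 and 9.96 to 115 CPM, and in SCC25 179.9 to 229.6 and 292 to 459 CPM. The markers that rose in SCC1 were COL1A1, COL1A2, DCN, LUM and FAP. Those that rose in SCC6 by edgeR were COL1A1 (log2 fold change 3.72, adjusted p = 0.0011) and the receptor PDGFRB (5.60, adjusted p = 0.00051). PDGFRB was under 1 CPM in all SCC6 PBS libraries of days 1 to 5, so its fold change is over a very low level. The related receptor PDGFRA stayed under 1 CPM in all libraries of SCC1 and SCC6 on days 1 to 5. The 3 endothelial markers together were at 0.239 to 2.78 CPM and 0 of them passed the test. Of 3 leukocyte markers, PTPRC and CD3E were under 1 CPM in all libraries of days 1 to 5, and CD68 fell in each line. The part of these markers in the changes below was not tested, and fewer cells of a type and less RNA per cell cannot be told apart in bulk RNA.

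With PBS, the lines differed in which FGF receptors and ligands they expressed. SCC25 had the highest levels of all 4 receptors, SCC1 had by far the most FGF2 and FGF5, and SCC6 had the most FGFRL1. All 10 members differed between SCC6 and SCC1 by the quasi-likelihood test of edgeR with a Benjamini-Hochberg adjusted p below 0.05, where 69.1% of the 19744 genes tested did. Between SCC25 and SCC1, 9 of 10 differed (68.4% of genes), and between SCC25 and SCC6, 9 of 10 (72.1%). As most genes differed between the lines, these counts are no result about the members, and the levels themselves are given below. Flow cell and line cannot be told apart in these comparisons, apart from 1 SCC1 and 1 SCC6 library of days 1 to 5 that were both on flow cell C.

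FGFR1, the receptor typical of mesenchymal cells (GRCh37 chromosome 8, 38257733 to 38326352, minus strand), spanned the widest range of the receptors. Its level with PBS was 0.963 ± 0.212 CPM in SCC1 (mean ± SD, n = 5), 5.64 ± 1.54 CPM in SCC6 and 36.4 ± 3.11 CPM in SCC25, and each neighbouring pair in this order differed, SCC6 from SCC1 by a log2 difference of 2.57 (SE 0.18) and SCC25 from SCC6 by 2.66 (SE 0.16). The SCC1 level rested on 29 to 57 counts per PBS library. FGFR2 was at 4.82 ± 0.452 CPM in SCC6, 6.78 ± 2.69 CPM in SCC1 and 38.5 ± 1.603 CPM in SCC25. SCC25 stood well above both others for FGFR2, by a log2 difference of 2.51 (SE 0.18) from SCC1, whereas the difference of SCC6 from SCC1 was small (-0.46, SE 0.19, adjusted p = 0.036) and lost the call without any of 4 libraries, PBS of day 1 of SCC1 (adjusted p = 0.12) and PBS of days 1, 2 and 3 of SCC6 (0.055, 0.063 and 0.079).

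FGFR3 and FGFR4 followed the order SCC1, SCC6, SCC25, with 2.78 ± 0.524, 5.49 ± 0.86 and 18 ± 3.84 CPM for FGFR3 and 2.303 ± 0.372, 6.21 ± 1.95 and 10.1 ± 0.843 CPM for FGFR4. Every neighbouring pair differed, the smallest step being FGFR4 between SCC6 and SCC25 (log2 difference 0.67, SE 0.17, adjusted p = 0.0018). FGFRL1, a receptor-like protein that binds FGFs but lacks the kinase domain, was at 38.8 ± 9.11 CPM in SCC6, 11.2 ± 2.13 CPM in SCC1 and 9.304 ± 1.03 CPM in SCC25. For FGFRL1, SCC1 and SCC25 did not differ beyond their spread (log2 difference -0.27, SE 0.15, adjusted p = 0.13, and 0.041 without the SCC6 PBS library of day 1, which enters the shared estimate of spread).

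FGF2 (basic FGF, a ligand of several FGF receptors) was at 117 ± 22.5 CPM in SCC1, 17.9 ± 3.196 CPM in SCC6 and 16.2 ± 3.15 CPM in SCC25, and the last pair did not differ beyond its spread (log2 difference -0.17, SE 0.16, adjusted p = 0.35). FGF5, a secreted ligand known as an inhibitor of hair growth, was at 71.7 ± 13.8 CPM in SCC1, 3.78 ± 0.255 CPM in SCC25 and 1.24 ± 0.294 CPM in SCC6, which put SCC6 below SCC1 by a log2 difference of -5.82 (SE 0.17), the largest difference of any member. FGF11, an intracellular member of the family that is not secreted as a classical ligand, was at 28 ± 1.94 CPM in SCC25, 8.42 ± 0.352 CPM in SCC1 and 3.41 ± 0.699 CPM in SCC6. FGFBP1, a secreted carrier that releases FGFs from heparan sulfate, followed the same order with 103 ± 8.44, 52.6 ± 8.08 and 10.4 ± 4.31 CPM. FRS2 varied least, with 33.8 ± 2.61 CPM in SCC1, 41.5 ± 4.08 CPM in SCC6 and 58.5 ± 4.07 CPM in SCC25.

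Divided by the length of the canonical transcript, which allows genes to be set beside each other, FGFR1 was the lowest of the 4 receptors in SCC1 at 0.169 ± 0.0372 CPM per kb and FGFR2 the highest at 1.47 ± 0.582 CPM per kb. In SCC25, FGFR2 was again the highest receptor at 8.33 ± 0.347 CPM per kb, followed by FGFR1 at 6.39 ± 0.547 CPM per kb. In SCC6 the 4 receptors lay close together, from 0.9901 ± 0.271 CPM per kb for FGFR1 to 2.01 ± 0.631 CPM per kb for FGFR4. Over all members, FGFBP1 had the highest level per length in SCC1 and SCC25 and FGFRL1 in SCC6. These values assume 1 transcript form per gene.

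**Figure D1:**
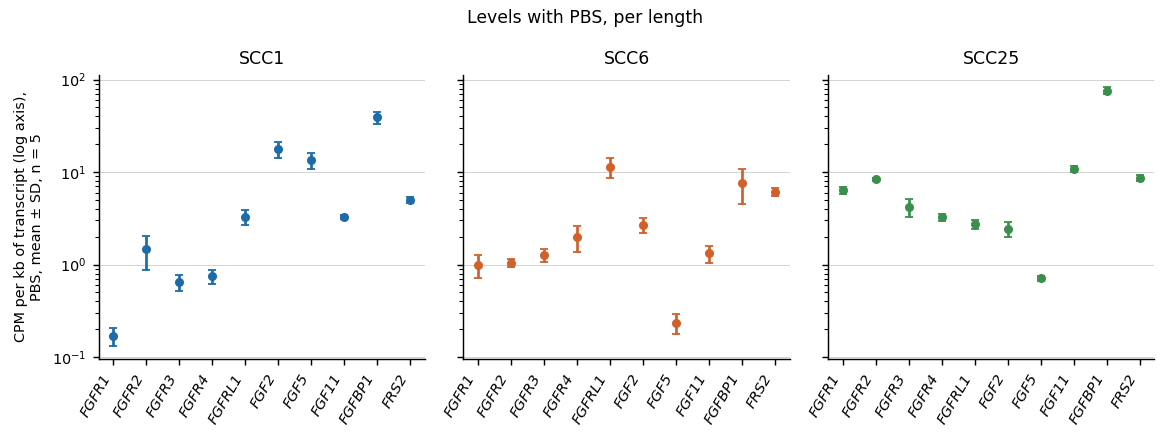
Level of each gene with PBS in the 3 cell lines, in CPM per kb of canonical transcript on a log axis, as mean (points) ± SD (bars) over the 5 libraries of days 1 to 5. FGF2 and FGF5 stand at 17.6 ± 3.39 and 13.5 ± 2.59 CPM per kb in SCC1 and at or below 2.69 CPM per kb in the other lines.

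Under cetuximab, FGFR2 rose in all 3 lines. FRS2 rose with it, but its call in SCC25 was lost in 9 of 16 fits under other settings or without 1 library. FGFR3 rose in SCC1 and SCC6, and its SCC1 call was lost with flow cell as a covariate. The ligand genes FGF2 and FGF5 fell in SCC1. In SCC1, 8 of the 10 members differed between the 5 cetuximab and the 5 PBS libraries of days 1 to 5, 5 higher and 3 lower, where 44.8% of the 17984 genes tested differed (22.7% higher and 22.1% lower). In SCC6, 4 of 10 differed, all higher, against 30.1% of 17387 genes (15.6% higher and 14.6% lower). In SCC25, 5 of 10 differed, 3 higher and 2 lower, against 18.3% of 19101 genes (8.8% higher and 9.5% lower). The median log2 fold change of the 10 members was 0.34 in SCC1, 0.34 in SCC6 and 0.11 in SCC25, and that of all genes tested was 0.02, 0.00 and 0.01. As the members were chosen with earlier results of these data known, these counts and medians cannot show an excess over all genes. Without the 2 libraries of flow cell E, the SCC6 count was again 4.

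**Figure D2:**
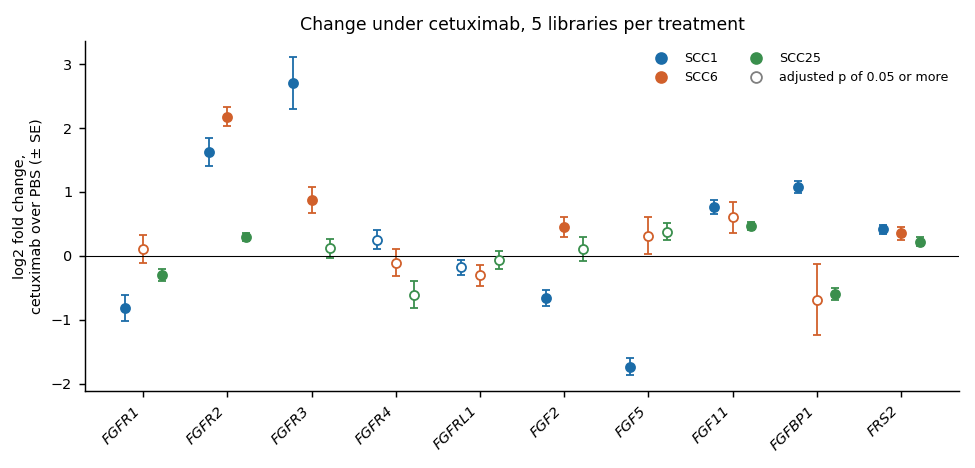
Change of each gene under cetuximab as log2 fold change (points) ± SE (bars) by edgeR, with 5 libraries per treatment in each line. Filled points passed the adjusted p of 0.05. FGFR2 and FRS2 are filled above 0 in all 3 lines, and FGF5 in SCC1 lies lowest at -1.73.

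FGFR2, which in its epithelial splice form binds FGFs made by the mesenchyme and is counted here over all splice forms (GRCh37 chromosome 10, 123237846 to 123357972, minus strand), was the only receptor that rose in all 3 lines. In SCC1 it was at 11.4, 6.49, 4.8, 4.97 and 6.23 CPM with PBS on days 1 to 5 and at 25.8, 21.9, 19.3, 19.7 and 16.4 CPM with cetuximab (log2 fold change 1.62, SE 0.22, adjusted p = 8e-05). Every cetuximab library was above every PBS library, and the PBS levels of days 0 and 1 (11.01 and 11.4 CPM) were above those of the later days. In SCC6 it was at 4.72, 4.68, 4.25, 5.48 and 4.98 CPM with PBS and at 17.2, 18.9, 21.6, 25.98 and 27.7 CPM in cetuximab libraries 2a, 2b, 3, 4 and 5 (log2 fold change 2.18, SE 0.15, adjusted p = 6e-06). The groups were again apart, and this was the largest log2 fold change of any member in that line. In SCC25, where FGFR2 started highest, it was at 39.6, 38.5, 36.4, 40.5 and 37.7 CPM with PBS and at 50.4, 50.1, 44.3, 46.04 and 43.1 CPM with cetuximab (log2 fold change 0.29, SE 0.06, adjusted p = 0.0078), and these groups did not overlap either. Within flow cell D, SCC6 PBS libraries had 4.25 to 5.48 CPM and cetuximab libraries 17.2 to 21.6 CPM. Within flow cell A, SCC25 PBS libraries had 36.4 to 40.5 CPM and the cetuximab libraries of days 1 and 2 had 50.4 and 50.1 CPM. The 1 PBS library of SCC1 on the flow cell of its cetuximab libraries, that of day 5, had 6.23 CPM against 16.4 to 25.8 CPM. With flow cell as a covariate the log2 fold change was 1.74 in SCC1 (adjusted p = 0.015), 1.96 in SCC6 and 0.40 in SCC25.

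FGFR3, a receptor of epithelia and cartilage (GRCh37 chromosome 4, 1795020 to 1810599, plus strand), had the largest rise of the set in SCC1. There it was at 2.44, 2.45, 2.601, 2.702 and 3.69 CPM with PBS and at 5.34, 12.4, 13.4, 21.4 and 37.03 CPM with cetuximab on days 1 to 5 (log2 fold change 2.71, SE 0.41, adjusted p = 0.00019). All cetuximab libraries were above all PBS libraries, and the level was higher on each later day of cetuximab. The log2 ratio of cetuximab to PBS of the same day was 1.10, 2.30, 2.32, 2.94 and 3.29 on days 1 to 5. The adjusted p was 0.059 with flow cell as a covariate, a fit that rests on the PBS library of day 5, which was also the highest PBS library. In SCC6 it was at 6.695, 4.38, 5.09, 5.48 and 5.81 CPM with PBS and at 8.23, 8.56, 7.75, 14.4 and 12.3 CPM with cetuximab (log2 fold change 0.87, SE 0.20, adjusted p = 0.0063), without overlap. The levels of the flow cell E libraries of days 4 and 5 were the highest, and without them the log2 fold change was 0.55 (adjusted p = 0.044). In SCC25 the groups overlapped, with 14, 18.6, 15.3, 18.2 and 23.9 CPM with PBS and 20.1, 22.5, 14.03, 20.3 and 20.1 CPM with cetuximab (log2 fold change 0.12, SE 0.15, adjusted p = 0.64). The transcript of FGFR3 is GC-rich (63.4% GC, above 95.3% of gene symbols with a value), as are those of FGFR4 and FGFRL1 (63.5% and 64.6%). After the dependence on GC content was removed from each library, FGFR3 in SCC25 had a log2 fold change of 0.26 (adjusted p = 0.048).

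FGFR1 fell in SCC1 and, by a small margin, in SCC25. In SCC1 it was at 0.737, 1.15, 1.21, 0.954 and 0.773 CPM with PBS and at 0.679, 0.647, 0.452, 0.439 and 0.482 CPM with cetuximab (log2 fold change -0.81, SE 0.21, adjusted p = 0.0064), from 18 to 57 counts per library, and the groups were apart although the PBS library of day 1 came close to the cetuximab library of that day. The adjusted p was 0.33 with flow cell as a covariate. In SCC25, with the highest levels of this receptor, FGFR1 was at 40, 38.3, 37.4, 32.8 and 33.5 CPM with PBS and at 33.4, 30.8, 23.8, 30.1 and 29.2 CPM with cetuximab (log2 fold change -0.30, SE 0.09, adjusted p = 0.04). Here the ranges overlapped, and the call was lost with flow cell as a covariate (adjusted p = 0.37), with no filter (0.052) and without any of 6 libraries, PBS of days 1, 2 and 3 (0.097, 0.095 and 0.087) and cetuximab of days 2, 4 and 5 (0.052, 0.078 and 0.089). In SCC6 it was at 8.36, 5.37, 4.97, 4.84 and 4.66 CPM with PBS and at 5.42, 4.22, 5.61, 7.97 and 7.65 CPM with cetuximab (log2 fold change 0.10, SE 0.22, adjusted p = 0.76), where the PBS library of day 1 was the highest of all 10. LETM2 lies on the opposite strand and overlaps an exon of FGFR1. The libraries were stranded, but the strand setting of the counting is not given in the sources used here. Whether reads of the overlap were told apart by strand is therefore not known. LETM2 had a log2 fold change of -0.80 (SE 0.14, adjusted p = 0.00054) in SCC1 and -0.41 (SE 0.07, adjusted p = 0.0015) in SCC25, the same directions as FGFR1, and of -0.43 (SE 0.16, adjusted p = 0.053) in SCC6, where FGFR1 was at 0.10. Its part in the FGFR1 values was not tested.

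FGFR4 and FGFRL1 did not pass the test in any line. FGFR4 was at 1.65 to 2.59 CPM with PBS and 2.44 to 3.19 CPM with cetuximab in SCC1, and at 4.86 to 9.596 and 5.09 to 8.22 CPM in SCC6, with overlap in both. FGFR4 had a log2 fold change of 0.25 (SE 0.15) in SCC1, -0.11 (SE 0.21) in SCC6 and -0.61 (SE 0.21, adjusted p = 0.061) in SCC25. The SCC25 values were 10.7, 11.1, 9.502, 9.02 and 10.02 CPM with PBS and 9.56, 8.12, 3.52, 5.76 and 5.84 CPM with cetuximab. The cetuximab library of day 3 was the lowest, and those of days 1 and 2, on the flow cell of the controls, were the highest. This receptor was called in SCC25 with DESeq2 (adjusted p = 0.019), with day as a block (0.018), with the GC trend removed (0.0045) and when the cetuximab library of day 1 (0.015) or day 2 (0.048) was left out, but had a log2 fold change of -0.17 with flow cell as a covariate (adjusted p = 0.58). In SCC1 the covariate gave 0.73 (adjusted p = 0.032), a fit that rests on the PBS library of day 5. That library was the lowest PBS library for FGFR4, at 1.65 CPM. In SCC6 the removal of the GC trend gave -0.34 (adjusted p = 0.028). FGFRL1 was at 54.9, 36.97, 33.7, 35.5 and 33.04 CPM with PBS and 29.8, 24.6, 32.3, 39.7 and 34.2 CPM with cetuximab in SCC6 (log2 fold change -0.30, SE 0.16, adjusted p = 0.18), with overlapping ranges. Its difference in SCC6 passed the threshold with the GC trend removed (-0.56, adjusted p = 0.00079) and with flow cell as a covariate (adjusted p = 0.044). In SCC1 and SCC25, the log2 fold changes of FGFRL1 were -0.18 (SE 0.12) and -0.07 (SE 0.15).

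Among the ligand genes, FGF5 and FGF2 fell in SCC1, the line that expressed most of both. FGF5 (GRCh37 chromosome 4, 81187793 to 81257834, plus strand) was at 54.05, 59.5, 80.5, 82.6 and 81.7 CPM with PBS and at 20.4, 22.9, 25.5, 21.1 and 16.6 CPM with cetuximab on days 1 to 5 (log2 fold change -1.73, SE 0.14, adjusted p = 1.9e-06). The groups were far apart on each day, and the log2 ratio to PBS of the same day was -1.40, -1.37, -1.66, -1.96 and -2.29. With PBS the level was higher on the later days, from 51.1 CPM on day 0 to 81.7 CPM on day 5. FGF2 (GRCh37 chromosome 4, 123747837 to 123819391, plus strand) was at 95.04, 94.7, 123, 148 and 126 CPM with PBS and at 76.9, 78.04, 81.3, 73.2 and 56.5 CPM with cetuximab in the same line (log2 fold change -0.66, SE 0.13, adjusted p = 0.00095). These groups did not overlap, and the log2 ratio by day was -0.31, -0.28, -0.59, -1.01 and -1.16. Both falls were called with flow cell as a covariate (adjusted p = 0.00019 for FGF5 and 0.021 for FGF2).

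In SCC6, FGF2 was at 19.9, 21.9, 17.8, 15.99 and 13.8 CPM with PBS and at 25.7, 24.05, 32.4, 19.6 and 22.9 CPM with cetuximab (log2 fold change 0.45, SE 0.16, adjusted p = 0.0499). The ranges overlapped, and this call rested on the choice of libraries and settings: it was lost without PBS of day 3, 4 or 5 (adjusted p = 0.099, 0.12 and 0.1), without cetuximab 2a, 2b, 3 or 5 (0.088, 0.061, 0.13 and 0.069), with DESeq2's size factors (0.059) and with no filter (0.064). FGF5 in SCC6 was at or under 2.38 CPM in every library of days 1 to 5 and did not pass the test (log2 fold change 0.32, SE 0.29, adjusted p = 0.44). In SCC25 the treatments overlapped for FGF2, with 11.8, 13.9, 18.5, 18.3 and 18.6 CPM with PBS and 11.3, 13.8, 22.5, 19.2 and 20.3 CPM with cetuximab (log2 fold change 0.11, SE 0.19, adjusted p = 0.73). FGF5 in SCC25 was at 3.58, 3.81, 3.796, 4.17 and 3.52 CPM with PBS and at 3.65, 3.92, 5.79, 5.69 and 5.41 CPM with cetuximab (log2 fold change 0.38, SE 0.14, adjusted p = 0.076). The cetuximab libraries of days 3 to 5, all on flow cell B, had the higher FGF5 values, and the difference was called with DESeq2 (adjusted p = 0.044), with the GC trend removed (0.036) and when the cetuximab library of day 1 (0.022) or day 2 (0.04) was left out, whereas with flow cell as a covariate the log2 fold change was 0.02 (adjusted p = 0.94). NUDT6 lies antisense to FGF2 and overlaps one of its exons, and without the strand setting it is not known whether reads of the overlap were told apart. NUDT6 was at 1.46 to 4.39 CPM with PBS in SCC1, with a log2 fold change of 0.29 (SE 0.23, adjusted p = 0.33), and did not pass the test in any line.

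FGF11 was higher with cetuximab in SCC1 and SCC25. In SCC1 it was at 8.76, 8.36, 8.21, 7.99 and 8.802 CPM with PBS and at 15.7, 15.3, 10.8, 13.1 and 16.2 CPM with cetuximab (log2 fold change 0.77, SE 0.11, adjusted p = 0.00011), and in SCC25 at 27.9, 26.3, 26.2, 28.7 and 30.9 CPM and at 38.7, 41.6, 34.7, 39.1 and 38.2 CPM (log2 fold change 0.47, SE 0.07, adjusted p = 0.00093). Neither pair of groups overlapped. In SCC6, FGF11 was at 4.54, 3.45, 3.405, 2.77 and 2.89 CPM with PBS and at 4.26, 3.37, 4.33, 6.897 and 7.45 CPM in cetuximab libraries 2a, 2b, 3, 4 and 5 (log2 fold change 0.60, SE 0.24, adjusted p = 0.075). The 2 libraries of flow cell E stood above the others, and without them the log2 fold change was 0.20 (adjusted p = 0.56). With day as a replicate block it was 0.72 (adjusted p = 0.033), and it was also called with the GC trend removed (0.038) and without PBS of day 1 (0.034) or cetuximab 2b (0.028). Long non-coding RNAs overlap exons of FGF11 on both strands, and how reads of the overlaps were assigned is not known. CFAP299 overlaps the end of FGF5 on the same strand and was not analysed here.

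FGFBP1 (GRCh37 chromosome 4, 15937200 to 15940363, minus strand) moved in opposite directions in SCC1 and SCC25. In SCC1 it was at 56.3, 43.4, 46.4, 53.2 and 63.7 CPM with PBS and at 111, 118, 107, 110.4 and 105 CPM with cetuximab (log2 fold change 1.08, SE 0.09, adjusted p = 3.4e-06). In SCC25 it was at 91.7, 106, 99.9, 101 and 115 CPM with PBS and at 81.4, 68.2, 66.8, 61.4 and 58.4 CPM with cetuximab (log2 fold change -0.60, SE 0.09, adjusted p = 0.0012). The groups did not overlap in either line, and both calls were made with flow cell as a covariate too (adjusted p = 0.0022 and 0.021). In SCC6, the level with PBS went from 24.7 CPM on day 0 to 14.3, 15.2, 9.26, 8.41 and 4.88 CPM on days 1 to 5, against 8.13, 16.6, 4.28, 2.76 and 1.52 CPM in cetuximab libraries 2a, 2b, 3, 4 and 5. The latest days had the lowest levels in both treatments, and the 2 libraries labelled day 2 stood far apart, at 8.13 and 16.6 CPM. The comparison over all days did not pass the test (log2 fold change -0.69, SE 0.55, adjusted p = 0.38), whereas with day as a replicate block the log2 fold change was -1.13 (adjusted p = 0.013), without cetuximab 2b the adjusted p was 0.04, and with flow cell as a covariate the log2 fold change was 0.01.

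FRS2, the adaptor that links FGF receptors to GRB2 and SHP2 (GRCh37 chromosome 12, 69864129 to 69973573, plus strand), had small rises in all 3 lines. In SCC1 it was at 37.8, 30.99, 32.1, 34.3 and 33.8 CPM with PBS and at 41.5, 42.4, 46.4, 49.2 and 43.4 CPM with cetuximab (log2 fold change 0.42, SE 0.07, adjusted p = 0.00041), and in SCC6 at 34.2, 43.2, 43.3, 43.8 and 42.9 CPM and at 53.01, 52.1, 61.03, 48.2 and 55.6 CPM (log2 fold change 0.35, SE 0.10, adjusted p = 0.017). The groups did not overlap in these lines, and the SCC6 adjusted p was 0.052 without the cetuximab library of day 3, the highest. In SCC25 it was at 59.1, 53.3, 59.3, 64.3 and 56.6 CPM with PBS and at 59.95, 63.8, 73.7, 71.6 and 69.5 CPM with cetuximab (log2 fold change 0.22, SE 0.07, adjusted p = 0.045). The SCC25 ranges overlapped, and that call was lost with flow cell as a covariate (adjusted p = 0.48), with no filter (0.08) and without any of 7 libraries, PBS of days 1, 2, 3 and 5 (0.072, 0.12, 0.076 and 0.069) and cetuximab of days 3, 4 and 5 (0.057, 0.11 and 0.089).

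**Figure D3:**
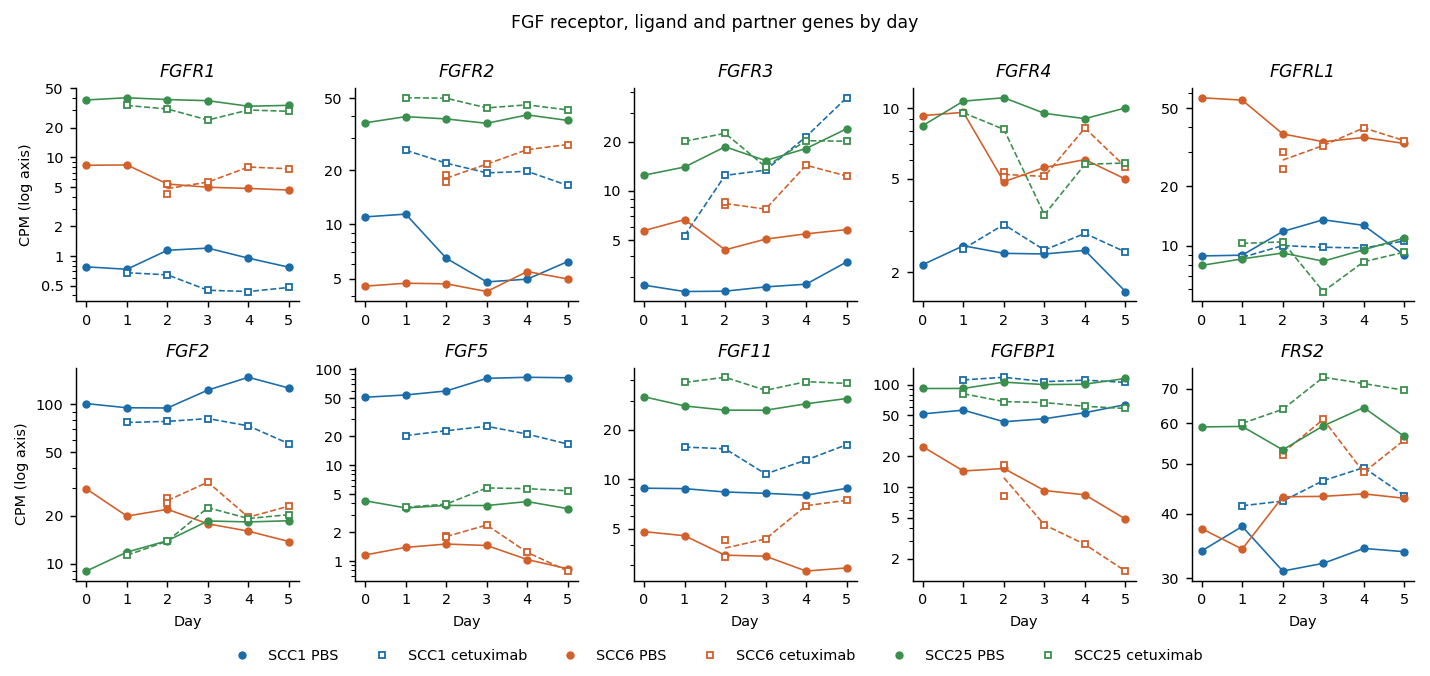
Level of each gene by day in CPM on a log axis, with 1 point per library and lines through the daily means. Circles with solid lines are PBS and open squares with dashed lines are cetuximab, coloured by cell line. For FGFR2, cetuximab lies above PBS in each line on every day that has both treatments, which leaves out day 1 of SCC6. For FGFBP1, cetuximab lies above PBS in SCC1 and below it in SCC25.

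The changes of 6 of the 10 members differed between the lines by the line-by-treatment terms of edgeR's test over the 30 libraries of days 1 to 5, where 26.1% of 21414 genes did. These were FGFR1 (adjusted p = 0.028), FGFR2 (1.1e-06), FGFR3 (7.9e-05), FGF2 (0.0021), FGF5 (4.5e-07) and FGFBP1 (0.0078). For FGFR2 the log2 fold change was 1.62 in SCC1, 2.18 in SCC6 and 0.29 in SCC25, for FGFR3 2.71, 0.87 and 0.12, and for FGF5 -1.73, 0.32 and 0.38. FGF11 and FRS2, with changes above 0 in each line, had adjusted p-values of 0.56 and 0.4 for a difference between lines. FGFR4 was at 0.069, and at 0.019 with day as a replicate block, 0.048 with DESeq2, and 0.018, 0.048 and 0.019 without the SCC25 cetuximab library of day 1, that of day 2 or the SCC6 PBS library of day 1. With flow cell as a covariate, the differences of FGFR2 (0.00057), FGF2 (0.0016) and FGF5 (9.1e-07) were called and those of FGFR1 (0.42), FGFR3 (0.09) and FGFBP1 (0.2) were not. The FGFR1 difference was also lost without any of 10 libraries, at adjusted p-values of 0.051 to 0.07. These were SCC1 PBS of days 2 and 3 and cetuximab of days 3, 4 and 5, and SCC6 PBS of days 3, 4 and 5 and cetuximab of days 4 and 5.

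**Figure D4:**
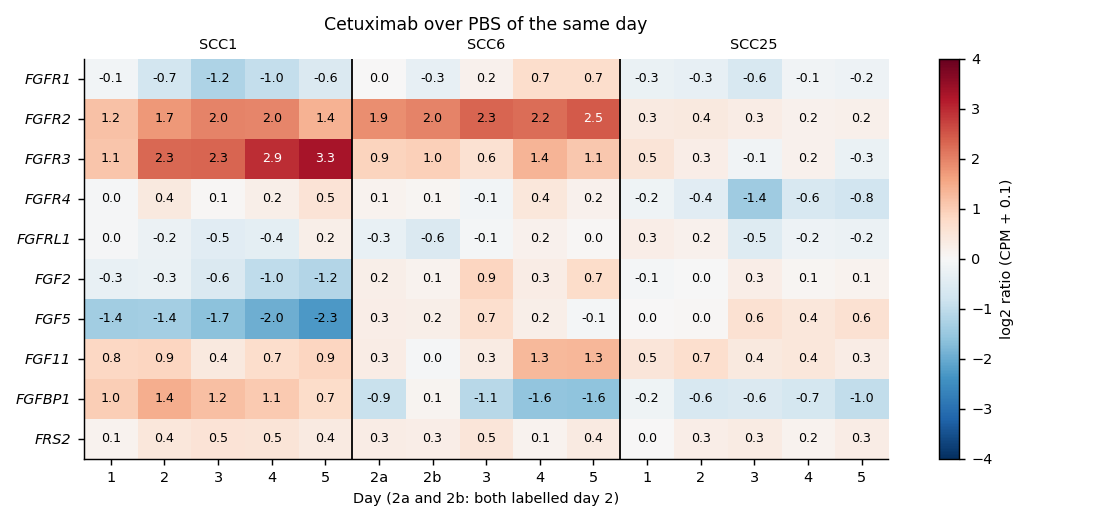
Log2 ratio of the cetuximab library to the PBS library of the same day, with 0.1 added to both CPM, for each gene (rows) and day (columns) in the 3 lines. SCC6 libraries 2a and 2b are both set against PBS of day 2. Red is higher and blue lower with cetuximab: FGFR3 in SCC1 goes from 1.10 on day 1 to 3.29 on day 5, and FGF5 in SCC1 from -1.40 to -2.29.

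Whether the change differed between days 1 to 3 and days 4 and 5 was tested within each line, and no member differed. The edgeR test called 0 genes of 19660 in SCC1, of 19150 in SCC6 and of 20740 in SCC25 (0% in each), with 1458, 5626 and 599 genes at an unadjusted p under 0.05, while DESeq2 called 31, 2838 and 3. At an unadjusted p under 0.05 there were 3 members in SCC1 (FGFR3, FGF2 and FGF5), 4 in SCC6 (FGFR1, FGFR3, FGFRL1 and FGF11) and 1 in SCC25 (FGFBP1). FGFR3 in SCC1 had a log2 fold change of 2.05 (SE 0.33) on days 1 to 3 and 3.21 (SE 0.40) on days 4 and 5. FGF2 went from -0.41 (SE 0.12) to -1.06 (SE 0.14) and FGF5 from -1.50 (SE 0.14) to -2.11 (SE 0.18) in that line. FGF11 in SCC6 was at 0.02 (SE 0.18) and 1.33 (SE 0.22), and its difference had an adjusted p of 0.093, of 0.024 with day as a replicate block (difference 1.12), of 0.0046 with DESeq2, and of 0.025 and 0.048 when PBS of day 1 or day 3 was left out. FGFR1 in SCC6 was at -0.35 (SE 0.22) on days 1 to 3 and 0.70 (SE 0.26) on days 4 and 5, and its difference (adjusted p = 0.097) was called with DESeq2 (0.032) and with no filter (0.023). With no filter, FGFRL1 (0.029) and FGFBP1 (0.0066) in SCC6 and FGF2 in SCC1 (0.012) were also called. The later cetuximab libraries of SCC6 were those of flow cell E.

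In the PBS libraries of days 0 to 5, the trend with the day was tested in each line. In SCC6, 6 of 10 members fell over the days, against 32.7% of 17757 genes called in either direction and 18.8% lower. FGFBP1 had the steepest slope at -0.43 log2 units per day (SE 0.05, adjusted p = 0.00072), followed by FGF2 at -0.21 (SE 0.03, 0.0035). The others were FGFR1 at -0.20 (SE 0.05, 0.014), FGFR4 at -0.20 (SE 0.06, 0.035), FGFRL1 at -0.18 (SE 0.04, 0.0086) and FGF11 at -0.18 (SE 0.05, 0.021). The libraries of days 0 and 1, on flow cell C, were the highest for FGFR1 (8.30 and 8.36 CPM, against 4.66 to 5.37 CPM on days 2 to 5), FGFR4 (9.29 and 9.60 against 4.86 to 6.04 CPM) and FGFRL1 (56.5 and 54.9 against 33.04 to 36.97 CPM). Flow cell and these first days cannot be told apart, and without day 0 only FGFBP1 was called. FGFR4 lost the call without any of days 0, 1, 3, 4 and 5 (adjusted p = 0.17, 0.093, 0.056, 0.065 and 0.098) and FGF11 without day 0, 1, 4 or 5 (0.12, 0.059, 0.07 and 0.051). In SCC1, FGF5 rose by 0.16 log2 units per day (SE 0.03, adjusted p = 0.032), where 2.49% of 19045 genes were called. This call was lost without day 0, 1, 2 or 4 (0.14, 0.14, 0.052 and 0.1). FGFR2 in SCC1, with a slope of -0.23 (SE 0.07, adjusted p = 0.1), was called without the day 5 library (0.017) and with DESeq2 (0.016), and FGF2 in that line with DESeq2 (0.041). In SCC25, where 10.7% of 20017 genes were called, FGF2 rose by 0.21 per day (SE 0.03, adjusted p = 0.0012), from 8.99 CPM on day 0 to 18.6 CPM on day 5, and FGFR3 by 0.16 (SE 0.03, 0.0072), from 12.5 to 23.9 CPM. The FGFR3 trend was lost without the day 5 library (0.11), and FGFBP1 was called without the day 2 library (slope 0.06, adjusted p = 0.045).

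Other genes of the pathway were described by lists. Their values are from the main fit only. Single list genes were not examined under the alternatives, such as flow cell as a covariate. Their counts are read against all genes tested, of which 22.7% rose and 22.1% fell in SCC1. In SCC6 the shares were 15.6% and 14.6%, and in SCC25 8.8% and 9.5%. Of 7 feedback inhibitors of receptor tyrosine kinase signalling, 0 rose and 4 fell in SCC1, 1 rose and 6 fell in SCC6, and 0 rose and 3 fell in SCC25. DUSP6, a phosphatase of ERK, had a log2 fold change of -3.19 (SE 0.22, adjusted p = 9.3e-07) in SCC1, -1.99 (SE 0.12, adjusted p = 3e-06) in SCC6 and -1.22 (SE 0.07, adjusted p = 6.5e-06) in SCC25, and the Sprouty genes SPRY2 (-1.31, -1.27 and -1.05) and SPRY4 (-1.93, -2.13 and -0.68) fell in each line too. SPRED2 fell in SCC1 (-0.34) and SCC6 (-0.41). SPRY1 fell in SCC6 (-1.11) and was at 0.48 (adjusted p = 0.12) in SCC1. The 1 that rose was IL17RD in SCC6, with a log2 fold change of 0.81 (SE 0.18, adjusted p = 0.0054). Of the 3 ETS factors ETV1, ETV4 and ETV5, which FGF signalling is known to induce, 1 fell in SCC1, 2 in SCC6 and 3 in SCC25, and 0 rose. ETV4 fell in each line (-0.45, -1.56 and -1.09), ETV1 in SCC6 (-1.17) and SCC25 (-0.64), and ETV5 in SCC25 (-0.30). Of 8 other adaptors and effectors, 2 rose and 5 fell in SCC1, 1 rose and 0 fell in SCC6, and 2 rose and 1 fell in SCC25. GAB1, a docking protein that binds to the FRS2 complex, rose in SCC1, with a log2 fold change of 0.60 (SE 0.06, adjusted p = 1.4e-05), and in SCC25, with 0.45 (SE 0.10, adjusted p = 0.012). SOS1, an exchange factor of RAS, rose (0.29 and 0.33) and SHC1 fell (-0.43 and -0.27) in the same lines. CBL, a ubiquitin ligase, fell in SCC1 (-0.52). PLCG1, a phospholipase, rose in SCC6 at 0.82 (SE 0.17, adjusted p = 0.0038) and fell in SCC1 at -0.29 (SE 0.05, adjusted p = 0.00098). Of 19 other ligand genes, 5 passed the filter in SCC1, 9 in SCC6 and 6 in SCC25, and 1, 2 and 0 of them rose and 1, 0 and 0 fell. FGF1, a ligand of all 4 receptors, fell in SCC1 at -1.67 (SE 0.29, adjusted p = 0.00051) and rose in SCC6 at 1.98 (SE 0.34, adjusted p = 0.0012), from low levels of 0.6095 to 1.18 and 0.616 to 1.76 CPM with PBS. FGF7 rose in SCC1 (0.76) and FGF18 in SCC6 (1.22). The counts of the other ligands lay near the shares of all genes. Of 15 co-receptors and binding proteins, 9 were tested in each line, and 3, 4 and 1 rose and 0, 1 and 0 fell in SCC1, SCC6 and SCC25. GPC4, a heparan sulfate proteoglycan, rose in SCC6, with 9.39 to 11.9 CPM with PBS and 33.4 to 121 CPM with cetuximab and a log2 fold change of 2.72 (SE 0.31, adjusted p = 9.6e-05). The related GPC1 rose in SCC1 (1.66) and SCC6 (1.29), as did SDC3 (0.28 and 1.00). FLRT2 rose in SCC6 (0.96), and FLRT3 in SCC1 (1.39) and SCC25 (0.28). EGFR, the target of cetuximab, rose in SCC1 by a log2 fold change of 0.58 (SE 0.07, adjusted p = 5.2e-05) and did not pass the test in SCC6 or SCC25. The median log2 fold change of the feedback inhibitors was -0.34, -1.11 and -0.09 in the 3 lines, against 0.02, 0.00 and 0.01 for all genes.

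The genes whose levels followed each member most closely were taken by Pearson's r of log2 CPM over the 30 libraries of days 1 to 5, after each line's mean was removed, among genes whose log2 CPM averaged 3 or more. For FGFR2 they were WASF1 (r = 0.97), ATXN1 (0.97) and SLC22A23 (0.96), for FGFR3 TRIM29 (0.95), PTPRU (0.95) and SLC22A5 (0.93), and for FGFR1 ERCC1 (0.94), VASP (0.91) and ABR (0.90). For FGF5 they were ITGB1 (0.91), STYK1 (0.90) and RAB3B (0.90), for FGF2 PGM3 (0.80), PBRM1 (0.80) and MACF1 (0.79), and for FGF11 CALCOCO1 (0.94), OS9 (0.92) and SNCG (0.92). FGFBP1 was closest to AIM1 (0.90), FRMD4B (0.88) and SUN1 (0.86), and FRS2 to COMMD2 (0.95), C5orf15 (0.94) and LANCL1 (0.93). SLC22A5 followed FGFR3 in SCC1 (r = 0.99, 10 libraries) but not in SCC25 (0.02), whereas ATXN1 followed FGFR2 in each line (0.97, 0.98 and 0.96). Treatment means were not removed, so each r includes the difference between cetuximab and PBS. The r within a line is from the libraries that also chose the gene. The points share libraries, depth and base composition, and the values are a description.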

How the data were processed

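Transcript abundance was measured by stranded poly(A) RNA sequencing (read length 100) of 33 libraries. The values, as deposited by the authors, are estimated counts per gene symbol, inferred by Salmon and gathered per gene by tximport, without normalisation between libraries. The submitters' processing notes name Salmon 0.8.2 and hg19/GRCh37. Neither annotation nor strand setting is given in the sources used here.

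Counts were rounded to whole numbers, filtered with filterByExpr, scaled by TMM and tested two-sided with edgeR's quasi-likelihood test (edgeR 4.0.16, limma 3.58.1, R 4.3.3), with p-values adjusted by Benjamini-Hochberg over all genes of a fit and a threshold of 0.05. Every p-value and adjusted p in the text is from this test unless DESeq2 (1.42.0) is named. The SE of a log2 fold change was taken from the F statistic. The scripts were tested on simulated data with known changes. The treatments were compared within each line over days 1 to 5. Changes were compared between lines over the same 30 libraries, and levels with PBS over the PBS libraries among them. Day 0 entered only the trend over days. CPM carry the TMM factors, and single-library ratios a pseudocount of 0.1. Genes were placed with GENCODE on GRCh37 by symbol.

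The labelled number is the day, so libraries of a line and day can be paired. The main test did not use these pairs, and the alternative with day as a replicate block did. The correlation across genes of paired deviations from the treatment means was 0.40, 0.38, 0.14, 0.20 and 0.12 in SCC1, 0.53, 0.57, 0.59, -0.19 and -0.00 in SCC6 (2a, 2b, 3, 4 and 5) and 0.23, 0.56, 0.53, 0.52 and 0.59 in SCC25. No 2 libraries agreed within sampling noise.

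The 10 members, and the lists of other ligands, co-receptors, heparan sulfate enzymes, adaptors, feedback inhibitors, ETS targets and cell type markers, were chosen with earlier results of these data known. All members are named, and of each list the up to 4 called genes with the largest change in a line. IL17RD, the feedback inhibitor that rose, is named as well. Only the members and the number of all genes called were examined under alternatives. Alternatives were DESeq2, DESeq2's size factors in edgeR, no filter on low counts, day as a replicate block, flow cell as a covariate, removal of each library's dependence on GC content, days 1 to 5 alone for the trend, and leaving out each library in turn. With flow cell as a covariate, every SCC1 change under cetuximab rests on the PBS library of day 5 alone.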

Additional observations from a re-analysis of the deposited data

Results flagged for a closer look

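A library far from the others of its line and treatment was found in 9 of 60 checks, each of 1 gene in 5 libraries. Chance gives about 1 in 20 for independent replicates. The genes share libraries and the libraries are of different days, so the 9 cannot be read against that rate. The SCC6 PBS library of day 1, the only one of its group on flow cell C, accounted for 4 of them: it was the highest for FGFR1 (8.36 CPM), FGFR4 (9.60 CPM) and FGFRL1 (54.9 CPM) and the lowest for FRS2 (34.2 CPM). The SCC1 PBS library of day 1 was the highest for FGFR2 (11.4 CPM). The SCC1 PBS library of day 5, the only one of its group on flow cell C, was the highest for FGFR3 (3.69 CPM) and the lowest for FGFR4 (1.65 CPM). The SCC25 cetuximab library of day 3 was the lowest for FGFR3 (14.03 CPM), and the SCC6 cetuximab library of day 4 the highest for FGFR4 (8.22 CPM).

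The change under cetuximab differed between the lines for 6 members by edgeR's test of the line-by-treatment terms: FGFR1 (adjusted p = 0.028), FGFR2 (1.1e-06), FGFR3 (7.9e-05), FGF2 (0.0021), FGF5 (4.5e-07) and FGFBP1 (0.0078).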

How the results depend on the processing

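For 92 results of single members, 636 values under alternatives were counted, with the lowest and the highest value standing for all fits that leave out 1 library. These are the 30 changes under cetuximab, the 30 PBS levels, the 10 differences between lines, and the 14 trends and 8 differences between periods that were called or had an unadjusted p under 0.05. Of the values, 564 had the direction and the side of the threshold reported, 28 lost the call, 33 gained it and 11 changed sign. Calls that changed in other fits without 1 library are not in these counts, which therefore understate the changed calls. FGF2 in SCC6, for example, lost the call in 9 of 17 alternatives. Among the remaining differences between periods, flow cell as a covariate changed the sign of FGFR4 and FGFRL1 in SCC1 (-0.01 and -0.03) and of FGFR3, FGFR4, FGFRL1, FGF5 and FRS2 in SCC25 (0.09, 0.82, 0.32, -0.14 and -0.17), and the replicate block that of FGF2 in SCC25 (0.01), all uncalled. The cause of these changes was not tested. The members called in SCC6 (4) were 7 with the GC trend removed and 2 to 5 with 1 library left out. Those in SCC25 (5) were 3 with no filter, 3 with flow cell as a covariate, 8 with the GC trend removed and 3 to 7 with 1 library left out. The 6 members that differed between lines were 3 with flow cell as a covariate. Between periods, where no member was called, there was 1 in SCC1 with no filter, and in SCC6 2 with DESeq2, 4 with no filter, 1 with day as a replicate block and 0 to 1 with 1 library left out. The PBS trend called 3 members in SCC1 with DESeq2, 0 on days 1 to 5 alone and 0 to 2 with 1 library left out (1 reported), 1 in SCC6 on days 1 to 5 alone and 1 to 6 with 1 library left out (6 reported), and 1 to 3 in SCC25 with 1 library left out (2 reported).

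The 11 changes of sign were in uncalled log2 fold changes under cetuximab. With flow cell as a covariate, FGFRL1 was at 0.14 in SCC1 and 0.17 in SCC25, FGFBP1 at 0.0074 in SCC6 and FGF2 at -0.35 in SCC25. With the GC trend removed, FGFR1 was at -0.0075 in SCC6 and FGFRL1 at 0.072 in SCC25. With 1 library left out, FGFR1 in SCC6 ranged from -0.0020 to 0.29, FGFR4 in SCC6 from -0.26 to 0.10 and FGFRL1 in SCC25 from -0.12 to 0.056. Without flow cell E, an alternative chosen after seeing the data, FGFR1 in SCC6 was at -0.18. With day as a replicate block, FGFR4 in SCC6 was at 0.12. The block called FGF11 (0.72, adjusted p = 0.033) and FGFBP1 (-1.13, 0.013) in SCC6, FGFR4 in SCC25 (-0.66, 0.018), FGFR4 between lines (0.019) and FGF11 between periods in SCC6 (1.12, 0.024), and changed no other call of a member.

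Of all genes, those called in SCC1 went from 8061 to 4197 with flow cell as a covariate, in SCC6 from 5238 to 7961 with the replicate block and 2868 without flow cell E, in SCC25 from 3496 to 1417 with flow cell and 5351 with the GC trend removed, and between lines from 5586 to 3080 with flow cell. Between periods, from 0 each, they went to 31 with DESeq2 and 202 with no filter in SCC1, to 2838, 3366 and, with the block, 2470 in SCC6, and to 3, 7 and, with flow cell, 209 in SCC25. For the PBS trend they went in SCC1 from 474 to 1485 with DESeq2 and 99 on days 1 to 5 alone, in SCC6 from 5812 to 1892 and in SCC25 from 2147 to 1090 on those days. Flow cell as a covariate could not be fitted for the periods of SCC6. GC content was known for 84.2%, 85.6% and 83.8% of the genes tested in SCC1, SCC6 and SCC25. FGFR1 in SCC1, at 18 to 57 counts per library, was among the members measured least deeply.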

Other observations

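Heparan sulfate, the glycan that FGFs need to engage their receptors, is built and trimmed by a set of enzymes, of which 11 were listed. In SCC1 5 of 10 tested enzyme genes rose and 2 fell, in SCC6 4 of 10 rose and 2 fell, and in SCC25 2 of 11 rose and 2 fell, where 44.8%, 30.1% and 18.3% of all genes tested changed. HS3ST1, a 3-O-sulfotransferase, fell in each line, with log2 fold changes of -1.66 (SE 0.18, adjusted p = 1.9e-05 by edgeR) in SCC1, -1.47 (SE 0.20, 0.00033) in SCC6 and -1.29 (SE 0.16, 0.00037) in SCC25. HS6ST2, a 6-O-sulfotransferase, fell in each line too, at -0.32, -0.46 and -0.63, while the related HS6ST1 rose at 0.60, 1.30 and 0.44. NDST1, which starts the sulfation of the chain, rose at 0.83, 1.70 and 0.29. EXT1, which extends the chain, rose at 0.21 in SCC1 and 1.24 in SCC6 and was at 0.11 (adjusted p = 0.2 by edgeR) in SCC25. The median log2 fold change of the enzymes was 0.12, 0.14 and 0.11, and that of all genes tested 0.02, 0.00 and 0.01. Values of the enzyme genes with flow cell as a covariate were not examined.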
